A study of Arabidopsis thaliana with 24 samples.

Results

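The 10 genes described here make or carry reducing power for nitrate assimilation in Arabidopsis thaliana plastids, together with the cytosolic isoforms of the same enzymes. They are a fixed list of genes, drawn up by enzyme and compartment with earlier results of these data known, out of 22954 genes in the widest table. The 7 genes of the plastid class are the glucose 6-phosphate dehydrogenase genes G6PD3 and G6PD2, the 6-phosphogluconate dehydrogenase genes AT5G41670 and AT1G64190, the root-type ferredoxin-NADP reductase genes RFNR2 and RFNR1, and the ferredoxin gene FD3. The 3 genes of the cytosolic class are G6PD5, G6PD6 and the 6-phosphogluconate dehydrogenase gene AT3G02360. The TAIR10.1 annotation places G6PD2 and G6PD3 in plastids and G6PD6 in the cytosol. The other placements are background knowledge: the AT5G41670 and AT1G64190 proteins are known from plastids and cytosol, and the AT3G02360 protein from the cytosol and peroxisomes. The seedling RNA does not report where a protein is.

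In plastids without light, the oxidative pentose phosphate pathway makes NADPH: glucose 6-phosphate dehydrogenase does the first oxidation, and 6-phosphogluconate dehydrogenase the next one. Root-type ferredoxin-NADP reductase then passes electrons from NADPH to ferredoxin, the reverse of the leaf reaction. Reduced ferredoxin drives nitrite reductase, ferredoxin-dependent glutamate synthase and sulfite reductase. The cytosolic dehydrogenases make NADPH for other reactions.

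The RNA came from whole seedlings of the Col-0 background in 8 groups of 3 biological replicates, 24 libraries in all. The mutants were hbi-q, which the labels do not resolve into the HBI genes it lacks, and nlp7-1, a mutant of the nitrate-response transcription factor NLP7. Each mutant had a group with 10 mM KNO3 and a mock group. Wild type had groups with 10 mM KNO3 plus 0.5 mM H2O2, with H2O2 alone, with KNO3 alone and with mock treatment. The titles of the authors' comparisons name the mock treatment KCl. In the comparison of KNO3 in the presence of H2O2, the title names the control KCl with H2O2. The KNO3 and H2O2 treatments lasted 3 h, and the labels give no time for mock. Before treatment all seedlings spent 7 days on medium with 7 mM KNO3, followed by 2 days on nitrogen-free medium. The comparisons ask how KNO3 changed each transcript in hbi-q, in nlp7-1, in wild type in the presence of H2O2, and in wild type, and whether the first 3 responses differed from the wild-type one. The values are the authors' comparison tables, with no value per library, so precision is given by the standard error (SE) of each deposited log2 fold change. The base mean, a gene's mean normalised count over the libraries of a table, summed to between 2.01e+07 and 2.09e+07 per table, and the depth of single libraries was not analysed here. The nlp7-1 table was less precise for the 10 genes, with SEs of 0.112 to 0.265, against 0.0535 to 0.0827 for hbi-q, 0.0585 to 0.0841 for wild type with H2O2 and 0.0532 to 0.0704 for wild type. The seedlings mixed shoot and root tissue, and all 8 shoot and all 8 root marker genes were listed in each table. In such bulk RNA, fewer cells of a type and less RNA per cell cannot be told apart. As a check of the mutant, NLP7 had a base mean of 446 in the nlp7-1 table. It had 1057 in both the hbi-q and the wild-type table, which share their base means, and 1324 in wild type with H2O2. A base mean pools the libraries of a fit, with and without KNO3, and is normalised within that fit. The NLP7 values are therefore only roughly comparable between tables.

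The annotated start regions of the genes are shown because the plastid class moved together under KNO3. The window ran from 250 bases before to 50 bases after the annotated start in TAIR10.1, and both strands were searched in 27443 genes. The nitrate-responsive element has a conserved half-site of the form TGNCNCTT, which was found in 3 of the 10 genes and in 11% of all windows. These 3 windows are printed 5′ to 3′ on the gene's strand, with the half-site in capitals (in G6PD3 it is read on the opposite strand).
G6PD3, chr1:8609088-8609387, plus strand: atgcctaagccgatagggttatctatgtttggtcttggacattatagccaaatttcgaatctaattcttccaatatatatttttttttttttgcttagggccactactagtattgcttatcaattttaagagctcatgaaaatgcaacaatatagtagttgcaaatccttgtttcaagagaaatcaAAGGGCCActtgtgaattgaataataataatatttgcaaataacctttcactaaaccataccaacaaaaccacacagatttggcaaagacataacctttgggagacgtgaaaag
AT1G64190, chr1:23827087-23827386, minus strand: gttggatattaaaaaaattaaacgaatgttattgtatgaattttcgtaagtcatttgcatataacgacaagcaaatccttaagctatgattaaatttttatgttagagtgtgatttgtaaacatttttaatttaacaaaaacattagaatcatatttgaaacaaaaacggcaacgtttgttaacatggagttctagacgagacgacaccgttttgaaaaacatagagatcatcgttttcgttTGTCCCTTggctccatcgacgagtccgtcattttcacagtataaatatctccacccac
G6PD6, chr5:16310413-16310712, plus strand: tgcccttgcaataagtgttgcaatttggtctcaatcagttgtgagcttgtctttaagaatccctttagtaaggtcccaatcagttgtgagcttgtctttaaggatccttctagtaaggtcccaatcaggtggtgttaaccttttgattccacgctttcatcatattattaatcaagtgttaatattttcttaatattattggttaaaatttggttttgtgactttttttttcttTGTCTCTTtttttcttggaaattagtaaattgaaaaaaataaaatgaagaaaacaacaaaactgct
The half-site began at position -64 from the start in G6PD3, at -8 in AT1G64190 and at -16 in G6PD6, so that 2 of the 7 plastid genes and 1 of the 3 cytosolic genes held it. The spaced pair CTTNNNNNNNNNNAAG, a looser form of the full element, was in none of the 10 windows and in 9.72% of all windows. HBI proteins belong to the bHLH family, whose general binding sequence is the E-box CANNTG. This was found in 4 of the 7 plastid genes and all 3 cytosolic genes, against 61.7% of all windows. The G-box CACGTG, an E-box of a fixed core, was in none of the 10 and in 7.68% of all windows. A match of letters is a description of the window, not a binding site.

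KNO3 raised all 7 plastid-class transcripts in all 4 comparisons and raised none of the 3 cytosolic ones. A gene was called higher or lower at an adjusted p under 0.05 and a change of at least 2-fold. By this rule 7 of the 10 genes were higher in hbi-q, where 10.1% of all genes were. The same 7 were higher in nlp7-1 (9.03% of all genes), in wild type with H2O2 (6.54%) and in wild type (9.44%). Called lower in hbi-q were 0 of the 10, against 6.06% of all genes. In nlp7-1, 1 of 10 was lower, AT3G02360, against 6.63% of all genes. None was lower in wild type with H2O2, against 4.14%, or in wild type, against 5.51%.

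**Figure D1:**
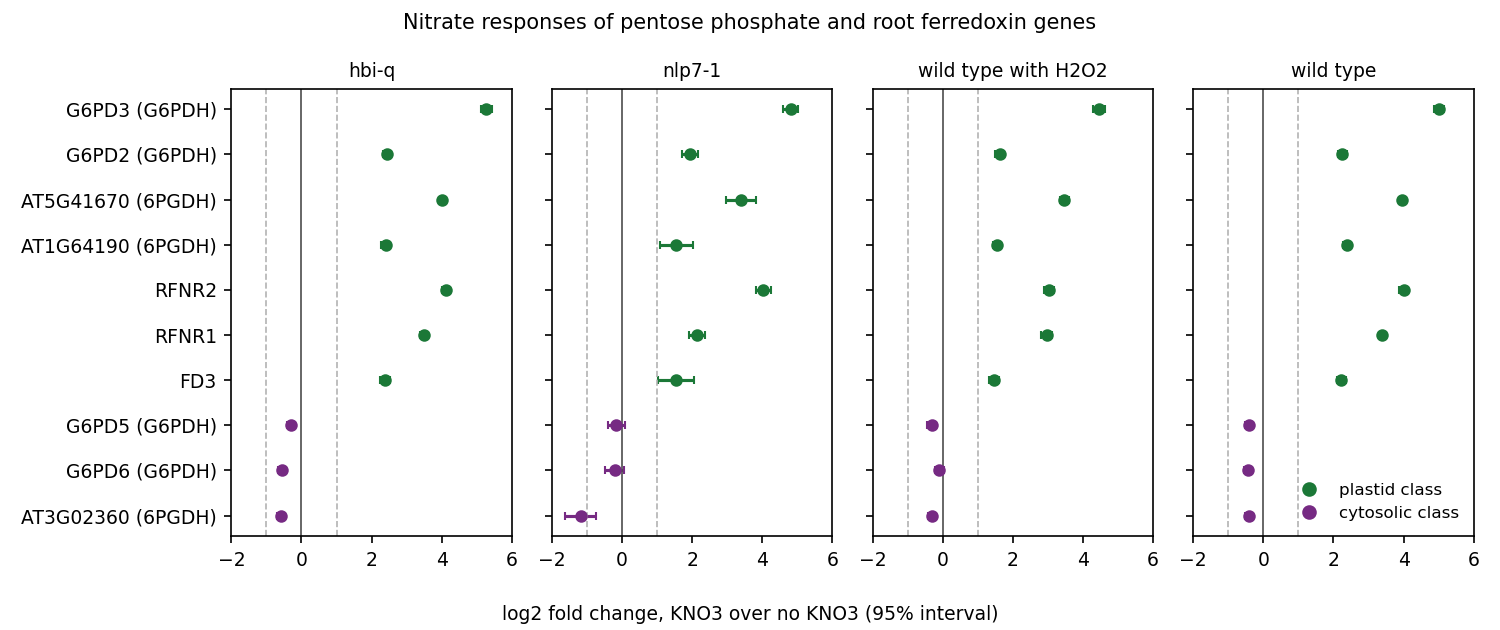
Each point is the authors' log2 fold change for KNO3 over no KNO3, with its 95% interval, for the 7 plastid-class genes (green) and the 3 cytosolic genes (purple) in 4 comparisons. Dashed lines mark 2-fold. The plastid genes lie above the upper line in every panel, between 1.46 and 5.27, and only AT3G02360 in nlp7-1 passes the lower line.

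The widest split between compartments among these genes was that of G6PD3, at the first step of the pathway. G6PD3 had the largest response of the 10 genes in each comparison. In the authors' deposited tables its log2 fold change was 5.27 ± 0.08 (SE) in hbi-q, 4.81 ± 0.11 in nlp7-1, 4.45 ± 0.08 in wild type with H2O2 and 5.02 ± 0.07 in wild type. These are 38.6-fold, 28.0-fold, 21.8-fold and 32.4-fold increases, with adjusted p listed at 0. G6PD3 ranked 50 of 22954 genes in wild type and 29 of 22302 in wild type with H2O2. G6PD2, the other plastid gene of this enzyme here, rose less. In the authors' deposited tables it had 2.44 ± 0.06 in hbi-q, 1.94 ± 0.12 in nlp7-1, 1.63 ± 0.07 in wild type with H2O2 and 2.25 ± 0.06 in wild type, a 4.76-fold increase with an adjusted p of 1.32e-278.

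The cytosolic glucose 6-phosphate dehydrogenases did not pass the fold threshold in any comparison. G6PD5 had log2 fold changes of -0.31 ± 0.06 in hbi-q, -0.17 ± 0.12 in nlp7-1, -0.32 ± 0.07 in wild type with H2O2 and -0.40 ± 0.06 in wild type in the authors' deposited tables. G6PD6 had -0.55 ± 0.06, -0.21 ± 0.14, -0.09 ± 0.06 and -0.43 ± 0.06 in the same order of groups in the authors' deposited tables. By adjusted p alone, 3 cytosolic genes were lower in hbi-q (28.9% of all genes were), 1 in nlp7-1 (22%), 2 in wild type with H2O2 (26.7%) and 3 in wild type (28.5%). A small decrease of this kind was therefore common among all genes. The G6PD3 response exceeded that of G6PD5 by 5.58 on the log2 scale in hbi-q, 4.98 in nlp7-1, 4.77 in wild type with H2O2 and 5.42 in wild type. Among the 10 genes, the narrowest gap between a plastid and a cytosolic gene of this enzyme in wild type was 2.65 ± 0.08, for G6PD2 and G6PD5. The enzyme has other genes, G6PD1 and G6PD4, which were not placed in a class here. In wild type G6PD1 had 1.18 ± 0.13 and G6PD4, at a base mean of 58.1, had -0.59 ± 0.24 in the authors' deposited table. The gaps between classes leave both out.

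The second oxidation followed the same division. AT5G41670 had log2 fold changes of 4.02 ± 0.05 in hbi-q, 3.39 ± 0.22 in nlp7-1, 3.47 ± 0.07 in wild type with H2O2 and 3.96 ± 0.05 in wild type in the authors' deposited tables. That is 16.2-fold, 10.5-fold, 11.1-fold and 15.6-fold. AT1G64190, its closest paralog, had 2.40 ± 0.06, 1.55 ± 0.24, 1.55 ± 0.06 and 2.39 ± 0.06 in the authors' deposited tables, which is 5.29-fold, 2.92-fold, 2.93-fold and 5.25-fold. AT3G02360 had -0.59 ± 0.06 in hbi-q, -1.18 ± 0.23 in nlp7-1, -0.30 ± 0.06 in wild type with H2O2 and -0.42 ± 0.06 in wild type in the authors' deposited tables. In nlp7-1 it fell to 0.440 of the mock level, with an adjusted p of 1.55e-06 by the authors' DESeq2 test.

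Paralogs of one class were closer in sequence than genes of different classes. The AT5G41670 and AT1G64190 proteins shared 93.4% of aligned residues and AT3G02360 shared 75.2% and 75.0% with them, at lengths of 487, 487 and 486 residues. Over the coding sequence AT5G41670 and AT1G64190 were 87.8% identical, so some reads from there could fit both. Identity in the rest of the exons was not measured. The G6PD3 and G6PD2 proteins, of 599 and 596 residues, were 86.7% identical, and G6PD5 and G6PD6, of 516 and 515 residues, 89.1%. Across compartments the glucose 6-phosphate dehydrogenases were 52.2% to 53.6% identical, and the plastid proteins began 66 to 90 residues earlier. The sources used here do not say whether the libraries kept strand. AT1G64190 (chr1:23825328-23827136, minus strand) is overlapped on the opposite strand over 634 of its 1809 exonic bases and G6PD3 (chr1:8609338-8612580, plus strand) over 120, so reads there cannot be told apart. No annotated gene overlapped the exons of the other 8.

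The genes that carry electrons from NADPH to ferredoxin rose as well. RFNR2 had log2 fold changes of 4.13 ± 0.06 in hbi-q, 4.03 ± 0.11 in nlp7-1, 3.04 ± 0.07 in wild type with H2O2 and 4.0 ± 0.06 in wild type in the authors' deposited tables. That is 17.5-fold, 16.3-fold, 8.21-fold and 16.0-fold. RFNR1 had 3.49 ± 0.05 in hbi-q, 2.13 ± 0.11 in nlp7-1, 2.97 ± 0.08 in wild type with H2O2 and 3.39 ± 0.05 in wild type in the authors' deposited tables. That is 11.2-fold, 4.39-fold, 7.81-fold and 10.5-fold. FD3, the ferredoxin of non-green plastids, had the smallest response of the 7 plastid genes in each comparison. Its log2 fold changes were 2.38 ± 0.07, 1.53 ± 0.27, 1.46 ± 0.07 and 2.22 ± 0.07 in the authors' deposited tables, in hbi-q, nlp7-1, wild type with H2O2 and wild type.

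The median log2 fold change of the plastid class was 3.49 in hbi-q, 2.13 in nlp7-1, 2.97 in wild type with H2O2 and 3.39 in wild type. The median of the cytosolic class was -0.55, -0.21, -0.30 and -0.42 in these groups, and the median of all genes was within 0.01 of 0 in each. Between the lowest plastid gene and the highest cytosolic gene lay a gap of 2.69 in hbi-q, 1.70 in nlp7-1, 1.55 in wild type with H2O2 and 2.62 in wild type. The classes overlapped in none of the 4 comparisons.

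The tables of nlp7-1 and of wild type with H2O2 also give a level per group, from the base mean and the fold change, if each held 2 groups of equal size. For the H2O2 pair this was checked: the H2O2-group levels derived from both H2O2 tables differed by a constant factor over 977 shared genes, with an SD of 0.000504 on the log2 scale. For nlp7-1 it could not be checked. The levels have no error of their own. G6PD3 had 9939 normalised counts in nlp7-1 with KNO3, against 355 in nlp7-1 mock, and 8049 in wild type with KNO3 and H2O2, against 369 in wild type with H2O2. RFNR2 had 27648 against 1695 in the nlp7-1 pair and 9995 against 1218 in the H2O2 pair. AT3G02360 had 7568 with KNO3, against 17204 in mock, in nlp7-1, and 10368 against 12735 in the H2O2 pair.

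Divided by exon length, these levels give the plastid-class share of each enzyme's transcripts, counting only its genes among the 10. In nlp7-1, the plastid genes made up 73.3% of the glucose 6-phosphate dehydrogenase level per kb with KNO3, against 19.7% in mock. In wild type with H2O2 they made up 69.8% with KNO3, against 20.9% without. For 6-phosphogluconate dehydrogenase the plastid share was 83% with KNO3, against 24.2% in mock, in nlp7-1, and 72.7% against 24.4% in wild type with H2O2. So genes of the cytosolic class gave most transcripts of both enzymes without KNO3, and genes of the plastid class most of them with it.

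**Figure D2:**
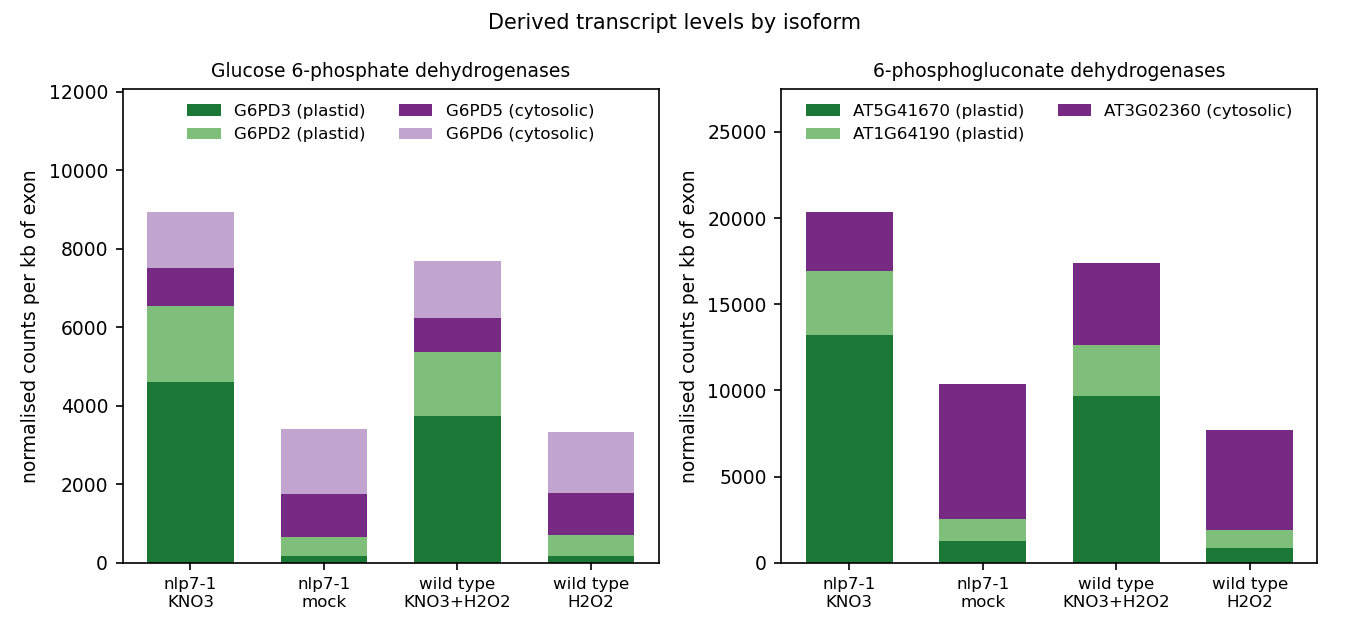
Stacked bars give the level per kb of exon derived from the authors' base mean and fold change, for the 4 glucose 6-phosphate dehydrogenase genes and the 3 6-phosphogluconate dehydrogenase genes, in 4 groups, with no error bars because the tables give none for a level. The green plastid share is 73.3% with KNO3 and 19.7% in mock for nlp7-1 on the left, and the purple cytosolic part changes less in height.

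The next question was whether a response differed between groups. Each response minus that of wild type was tested with a z-test on the deposited values and SEs, with Benjamini-Hochberg adjustment over all genes. All 3 differences use the same wild-type response. The hbi-q and wild-type tables also share their base means, and the SE of each difference takes both responses as independent.

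In hbi-q none of the 10 responses was called different from wild type. The calls were 2.13% of all genes higher and 3.49% lower. The largest difference was G6PD3, at 0.25 ± 0.11 with an adjusted p of 0.178 by the z-test, and a 95% interval of 0.04 to 0.47. The lowest was AT3G02360, at -0.17. The 7 plastid genes all had values above 0. The intervals of G6PD3 and G6PD2 (0.02 to 0.37) lay above 0 and that of AT3G02360 (-0.33 to -0.01) lay below 0, while those of the other 7 genes spanned 0.

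In nlp7-1 the response of RFNR1 was lower than in wild type by the widest margin of the 10, at -1.26 ± 0.12 on the log2 scale, with an adjusted p of 8.66e-21 by the z-test. Its 95% interval was -1.50 to -1.01. RFNR2, which encodes the other root-type reductase, differed by 0.03 ± 0.13, with an interval of -0.22 to 0.28 and an adjusted p of 0.901. AT1G64190 (-0.85 ± 0.25, adjusted p = 0.0136 by the z-test) and AT3G02360 (-0.77 ± 0.24, adjusted p = 0.0180) were also lower. So 3 of the 10 responses were lower and 0 higher, against 7.38% of all genes lower and 4.33% higher. Of the 2112 genes called higher by KNO3 in wild type, 400, or 18.9%, had a lower response in nlp7-1 and 50 a higher one, a share that choosing on the wild-type response favours. The plastid class, all called higher in wild type, had 2 of 7 lower. The other plastid genes had -0.69 ± 0.27 for FD3, -0.57 ± 0.23 for AT5G41670, -0.31 ± 0.13 for G6PD2 and -0.21 ± 0.13 for G6PD3, none of them called. The z-values of all genes were wider than the SEs imply, with a robust SD of 1.88. Scaled by it, RFNR1 kept its call (adjusted p = 0.000115 by the z-test), and AT1G64190 and AT3G02360 lost theirs (0.996 each).

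With H2O2 present, all 7 plastid responses were smaller than in wild type without it, and 1 cytosolic response was higher. RFNR2 differed by -0.96 ± 0.09 (adjusted p = 5.35e-23 by the z-test), AT1G64190 by -0.84 ± 0.09 (4.29e-20) and FD3 by -0.77 ± 0.10 (1.72e-12). G6PD2 differed by -0.62 ± 0.09, G6PD3 by -0.57 ± 0.11, AT5G41670 by -0.50 ± 0.09 and RFNR1 by -0.42 ± 0.09. G6PD6 was higher, by 0.34 ± 0.09 (adjusted p = 0.000827 by the z-test), while G6PD5 (0.08 ± 0.09) and AT3G02360 (0.12 ± 0.08) were not called. Among all genes 13.4% were lower and 11.4% higher. Of the 2130 genes called higher by KNO3 in wild type, 909, or 42.7%, had a lower response with H2O2 and 43 a higher one, a share that choosing on the wild-type response favours. Scaled by the robust SD of 1.97, RFNR2, AT1G64190, FD3 and G6PD2 kept their calls, and G6PD3 (adjusted p = 0.146 by the z-test), AT5G41670 (0.0800), RFNR1 (0.274) and G6PD6 (0.425) lost theirs.

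**Figure D3:**
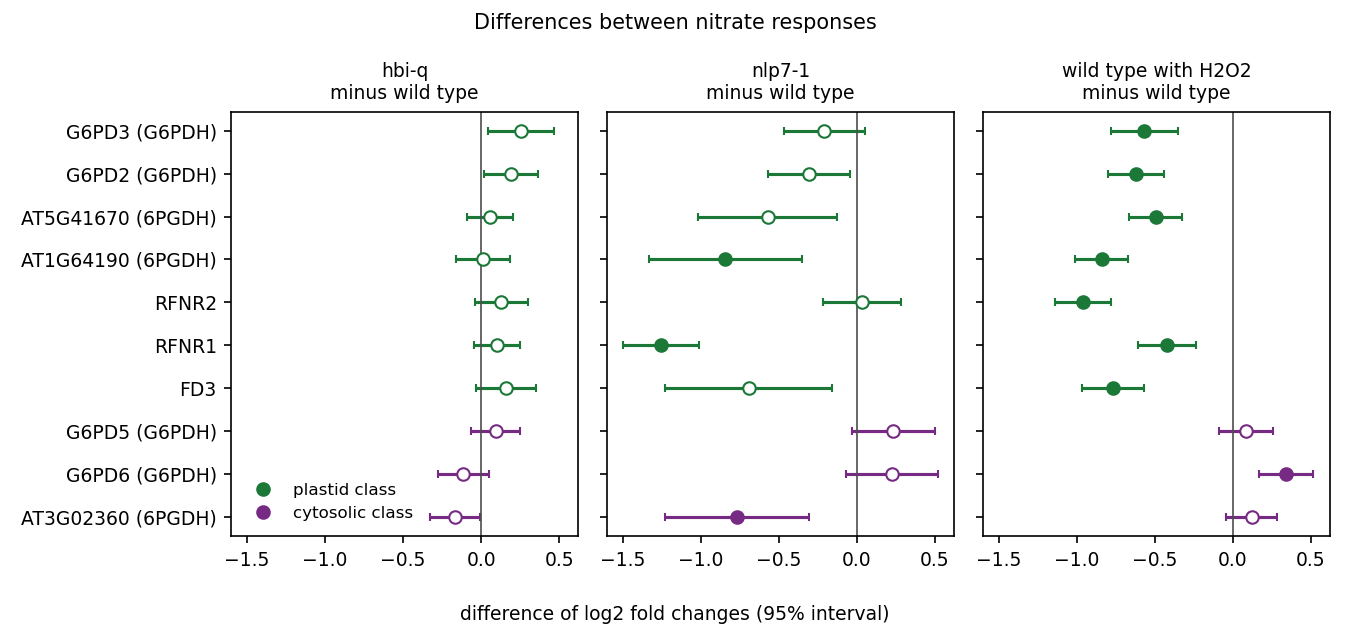
Each point is the KNO3 response in hbi-q, nlp7-1 or wild type with H2O2 minus that in wild type, with its 95% interval, and filled points passed the z-test at an adjusted p under 0.05. RFNR1 lies at -1.26 in nlp7-1 beside RFNR2 at 0.03, and the 7 plastid genes lie below 0 with H2O2.

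Of the 2 root-type reductase genes, RFNR1 had the lowest difference of the 10 genes in nlp7-1, and RFNR2 had the lowest with H2O2. A test of RFNR1 against RFNR2 was not made. The shoot markers moved between the same comparisons. Their median log2 fold change was 0.90 in hbi-q, 0.39 in nlp7-1, -0.18 in wild type with H2O2 and 1.01 in wild type, with 3, 0, 0 and 4 of 8 called higher and 0, 0, 1 and 0 lower. The root markers had medians of -0.06, -0.26, 0.21 and 0.05, with 1, 0, 0 and 1 of 8 called higher. Their base means summed to 51781, 39484, 53813 and 51781 for shoot and 52507, 70594, 35236 and 52507 for root, and no defining marker was at 0. Most of each root sum came from the highest root marker, at 48214, 64888, 32621 and 48214. The part of the shoot and root markers in the differences was not tested.

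H2O2 alone was listed as changing none of the 10 genes or of the 43 other pathway genes. The authors' deposited table for H2O2 over mock holds 1810 genes, all past the adjusted p and the 2-fold threshold, which is 8.11% of the 22311 genes in the H2O2 tables. A smaller change, or a gene below the thresholds, would not appear there.

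Around the 10 genes, 43 other genes of the pathway, its supply and its users were examined, in 6 lists. In hbi-q, 13 were called higher (10.1% of all genes were) and 1 lower (6.06%), with a median log2 fold change of 0.49. In nlp7-1 12 of 42 were higher (9.03% of all genes) and 1 lower (6.63%), with a median of 0.16. In wild type with H2O2 7 were higher (6.54%) and 1 lower (4.14%), with a median of 0.08. In wild type 14 were higher (9.44%) and 2 lower (5.51%), with a median of 0.35. The median of all genes was near 0, as above. NIR1, the nitrite reductase that uses the ferredoxin, rose most, with 6.08 ± 0.06 in hbi-q, 5.66 ± 0.14 in nlp7-1, 4.95 ± 0.06 in wild type with H2O2 and 5.44 ± 0.05 in wild type in the authors' deposited tables. Its response was higher in hbi-q than in wild type by 0.63 ± 0.08 (adjusted p = 1.48e-13 by the z-test) and lower with H2O2, at -0.49 ± 0.08 (adjusted p = 5.75e-08 by the z-test). Scaled by the robust SD, the second of these calls was lost (adjusted p = 0.0599).

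Enzymes that use reduced ferredoxin or NADH differed in their calls. GLT1, the NADH-dependent glutamate synthase, rose, with 3.43 ± 0.15 in hbi-q, 2.93 ± 0.12 in nlp7-1, 2.33 ± 0.08 in wild type with H2O2 and 3.26 ± 0.15 in wild type in the authors' deposited tables. GLU1, the ferredoxin-dependent glutamate synthase of leaves, had 0.75 ± 0.08, 1.01 ± 0.18, 0.23 ± 0.09 and 0.67 ± 0.08 in the authors' deposited tables and was called in nlp7-1 alone. GLU2, its paralog, had -0.45 ± 0.09, -0.76 ± 0.15, -0.36 ± 0.07 and -0.38 ± 0.09 there and was not called. SIR, the sulfite reductase, rose in all 4 comparisons, with 1.26 ± 0.04, 1.20 ± 0.13, 1.06 ± 0.07 and 1.21 ± 0.04 in the authors' deposited tables.

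The photosynthetic counterparts had smaller log2 fold changes than the root forms. The leaf reductase genes FNR1 and FNR2 had log2 fold changes of 0.48 and 0.70 in hbi-q, 0.41 and 1.15 in nlp7-1, -0.36 and -0.13 in wild type with H2O2, and 0.34 and 0.63 in wild type in the authors' deposited tables. Among these only FNR2 in nlp7-1 was called. The leaf ferredoxin genes FD1 and FED A had 1.40 and 1.37 in hbi-q and 1.27 and 1.57 in wild type, all called, and 0.90 and 0.78 in nlp7-1 and 0.46 and 0.52 in wild type with H2O2, none called, in the authors' deposited tables. FED A had a smaller response with H2O2 than in wild type without it, by -1.05 ± 0.13 (adjusted p = 2.9e-15 by the z-test).

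In the non-oxidative branch, which returns pentose phosphates to sugar phosphates, 3 of 11 genes were called higher in every comparison and none lower. Among all genes 6.54% to 10.1% were called higher and 4.14% to 6.63% lower, so none lower of 11 is near that share. TRA2, a transaldolase, had the largest response in this branch. Its log2 fold changes were 2.58 ± 0.05 in hbi-q, 1.82 ± 0.23 in nlp7-1, 1.71 ± 0.06 in wild type with H2O2 and 2.56 ± 0.05 in wild type in the authors' deposited tables. NADP-ME1, a cytosolic NADP-dependent malic enzyme, fell in all 4, with -2.43 ± 0.15, -1.75 ± 0.17, -1.25 ± 0.16 and -2.14 ± 0.15 in the authors' deposited tables. GPT2, a plastid glucose 6-phosphate/phosphate translocator, fell in wild type, with -1.13 ± 0.07 in the authors' deposited table, and had -0.89 in hbi-q, -0.90 in nlp7-1 and -0.55 in wild type with H2O2, not called. In the same list of 5 supply genes, and chosen after their values were seen, its paralog GPT1 (1.03 ± 0.06) and the glucose 6-phosphate isomerase gene PGI1 (1.09 ± 0.05) rose in wild type in the authors' deposited table. GPT1 had 0.88 in hbi-q, 0.52 in nlp7-1 and 0.17 in wild type with H2O2, not called. PGI1 was called in hbi-q (1.26) and nlp7-1 (1.12) and not in wild type with H2O2 (0.70).

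**Figure D4:**
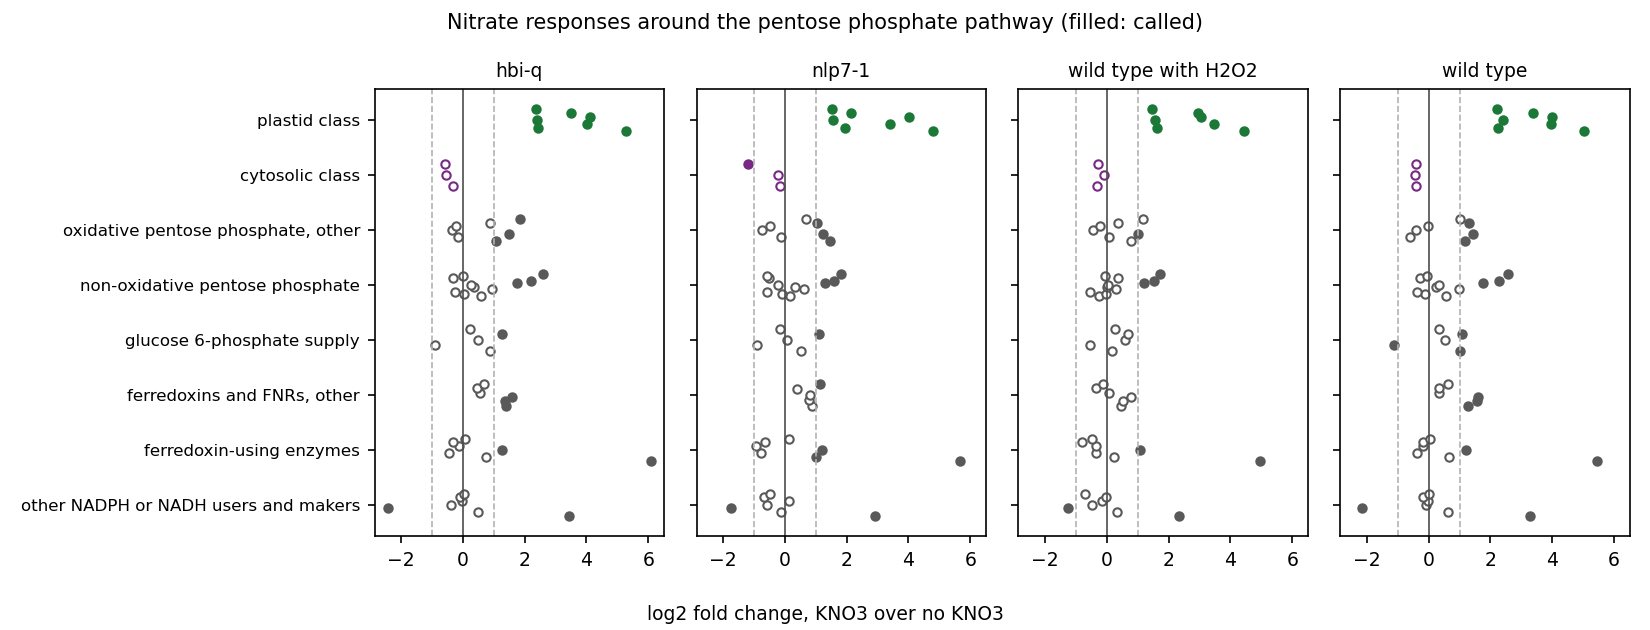
Points are the authors' log2 fold changes for KNO3 over no KNO3, with filled points called at an adjusted p under 0.05 and at least 2-fold, for the 2 classes and the 6 lists of other pathway genes. The plastid class is filled throughout, while each of the 6 lists holds genes that were not called, and NIR1 is the rightmost grey point, at 4.95 to 6.08.

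The genes with the pattern most like 3 of the members were sought among the 15339 genes with a base mean of at least 100 in all tables, by the mean absolute difference of log2 fold changes over the 4 comparisons. For G6PD3 these were CIL (0.211), LBD37 (0.558) and NIR1 (0.649). For RFNR1 they were AT4G25835 (0.212), MDAR6 (0.239) and TOM7-2 (0.357). For FD3 they were the transketolase gene AT3G60750 (0.0883), AT2G45180 (0.0989) and GA3OX1 (0.120).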

How the data were processed

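RNA from whole seedlings was sequenced on a BGISEQ-500 instrument, 3 libraries in each of 8 groups. The submitters' processing notes name HISAT, Bowtie2, HTSeq, DESeq2 and the TAIR10 genome, with versions not given in the sources used here. Default parameters were used for read counting, per the labels' design text, and whether the libraries kept strand is not given. The deposited files are the authors' DESeq2 comparison tables. Per the file headers, each gives the base mean (a normalised count, here a signal per gene), the log2 fold change, its SE, the Wald statistic (a score) and the p-value with its adjusted p-value. An adjusted p-value listed at 0 by the authors is below the smallest number the table holds. No values per library were used.

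Genes were matched by locus and named from TAIR10.1. The authors' values were copied. Calls used an adjusted p under 0.05 and at least 2-fold. The difference of 2 responses was divided by the root of the summed squared SEs (z-test, two-sided) and adjusted over all genes in both tables with the Benjamini-Hochberg method. The step was checked on simulated data with known differences, with noise drawn independently for each response from the deposited SEs. That check cannot show how the test behaves where z-values are wider than the SEs imply, as they were here. Group levels were derived from base mean and fold change. Python 3.11.15, NumPy 2.4.6, pandas 2.3.3, SciPy 1.17.1, Biopython 1.88 and matplotlib 3.10.9 were used. The alternatives were no fold minimum, an adjusted p under 0.01 with 4-fold, a base mean of at least 100 and a robust scale for z. Fold changes centred on the median and class means in place of medians were also tried.

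The members and the gene lists were chosen with earlier results of these data known. Of the other pathway genes, the text names the 3 highest called per comparison and those called lower, NADP-ME1 and GPT2. It also names 9 fixed genes (NIR1, GLT1, GLU1, GLU2, SIR, FNR1, FNR2, FD1 and FED A). GPT1, PGI1, G6PD1 and G6PD4 were added after their values were seen, and AT3G60750 appears as a nearest pattern. Other genes called higher are counted but not named. Replicates were labelled as biological, but the p-values measure only the spread between the libraries of each table.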

Additional observations from a re-analysis of the deposited data

Results flagged for a closer look

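In hbi-q the KNO3 response of NIR1 differed from that of wild type by 0.63 on the log2 scale, in a test of the difference itself. In nlp7-1 the responses of RFNR1 (-1.26), AT1G64190 (-0.85) and AT3G02360 (-0.77) differed from wild type in the same kind of test.

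With H2O2 the difference from wild type passed the test for RFNR2 (-0.96), AT1G64190 (-0.84), FD3 (-0.77), G6PD2 (-0.62), G6PD3 (-0.57), AT5G41670 (-0.50), NIR1 (-0.49), RFNR1 (-0.42) and G6PD6 (0.34). On the robust scale NIR1 lost its call with H2O2 (adjusted p = 0.0599 by the z-test), as did 4 of the members named in the report. All differences use the one wild-type response. The causes were not tested.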

How the results depend on the processing

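The thresholds, the base mean minimum and the robust scale leave each log2 value as it is, so they could not reverse a direction. Centring fold changes on the median and using class means do change values, and no result for the 10 genes reversed direction there. Without a fold minimum, the members called lower were 3 in hbi-q, 2 in wild type with H2O2 and 3 in wild type. The other pathway genes called higher were then 26 in hbi-q, 18 in wild type with H2O2 and 24 in wild type, and those called lower 9 in hbi-q, 13 in nlp7-1, 13 in wild type with H2O2 and 8 in wild type. At an adjusted p under 0.01 and 4-fold, 4 members were higher in nlp7-1 and 4 in wild type with H2O2, and 0 were lower in nlp7-1. The other pathway genes called higher were then 4 in hbi-q, 2 in nlp7-1, 2 in wild type with H2O2 and 4 in wild type, and those called lower 0 in nlp7-1, 0 in wild type with H2O2 and 1 in wild type.

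Of the 3 members with a lower response in nlp7-1, 1 remained at an adjusted p under 0.01, 1 when 2-fold was required and 1 on the robust scale. With H2O2, of 7 lower responses 0 were at least 2-fold and 4 passed with the robust scale, and of 1 higher response 0 passed either. Over all genes the robust scale left 520 of 1288 calls in hbi-q, 66 of 2552 in nlp7-1 and 823 of 5509 with H2O2. With class means, the plastid minus cytosolic difference was 3.29 in nlp7-1 (2.34 with medians) and 2.89 in wild type with H2O2 (3.26 with medians). No paired analysis was possible because the tables used hold no values per library, and leaving out each replicate was not run for the same reason. Precision was lowest in the nlp7-1 table, whose SEs for the 10 genes were the widest, and the depth per library is unknown here.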
